A study of Mus musculus with 18 samples.

Results

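Cyp2e1, 3 alcohol dehydrogenases (Adh1, Adh4, Adh5) and 4 aldehyde dehydrogenases (Aldh2, Aldh1a1, Aldh1b1, Aldh3a2) were followed in epididymal fat and liver of obese and lean mice. These 8 genes were found by symbol among 23474 genes of the deposited expression table, and all 8 had a row. The group was chosen by function around Cyp2e1, which was itself selected on its measured FPKM in fat by diet, so the fat values of Cyp2e1 are given as a description with no test.

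The study asked how green tea extract bears on metabolism in diet-induced obesity. Male C57BL/6J mice, 17 weeks old, had eaten a high-fat diet with an ethanol extract of green tea at 0.25% (w/w) (GT), the high-fat diet alone (HFD) or a normal diet (ND) for 12 weeks. The labels name no transgene or deletion in any group. Polyadenylated RNA was sequenced from 3 libraries per tissue and diet, 18 in all. Levels are in FPKM, which scales reads by gene length and by library, so levels of different genes may be set side by side. The labels do not tie each library to a mouse of its own, so a p-value here speaks only of the scatter among libraries, some of which may be technical.

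CYP2E1 is a cytochrome P450 of the endoplasmic reticulum that oxidises ethanol, acetone and fatty acids and releases reactive oxygen while doing so. Alcohol dehydrogenases turn alcohols into aldehydes in the cytosol, and aldehyde dehydrogenases turn the aldehydes into acids, among them acetate from ethanol and retinoic acid from retinol. In liver these enzymes are abundant in hepatocytes, where CYP2E1 marks the zone around the central vein and is known to rise in fasting, diabetes and obesity.

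The bases in front of the transcription start are shown for the gene with the widest FPKM range in fat, Cyp2e1, and for Adh4, which had the largest log2 difference among the 3 alcohol dehydrogenases in liver. Both stretches are the 250 bases before the start on the plus strand in RefSeq's GRCm38.p6, at chr7:140763569-140763818 for Cyp2e1 and chr3:138415247-138415496 for Adh4, printed 5′ to 3′. Capitals mark the motif TATAAA, the core of the TATA box.
Cyp2e1: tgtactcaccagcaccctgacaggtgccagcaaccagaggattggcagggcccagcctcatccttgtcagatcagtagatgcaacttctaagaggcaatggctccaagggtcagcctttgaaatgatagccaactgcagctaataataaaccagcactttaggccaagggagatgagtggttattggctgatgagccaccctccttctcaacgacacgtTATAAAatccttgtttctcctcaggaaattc
Adh4: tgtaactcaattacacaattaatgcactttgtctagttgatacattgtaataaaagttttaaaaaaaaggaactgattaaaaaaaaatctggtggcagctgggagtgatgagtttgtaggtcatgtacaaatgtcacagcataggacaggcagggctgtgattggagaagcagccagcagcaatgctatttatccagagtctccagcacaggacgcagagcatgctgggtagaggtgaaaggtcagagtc

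In the Cyp2e1 window TATAAA began 31 bases before the start, and the Adh4 window did not hold it on either strand. Such a match occurred in 12.4% of 32851 promoter windows of the same length. TTGCNNAA, a loose form of the sequence read by C/EBP factors, was also searched on both strands and occurred in 9.56% of windows. It was not found in the printed windows. GTTAAT, a half-site of hepatocyte nuclear factor 1, was searched likewise, occurred in 6.43% of windows and was in no window of these genes. No match of one motif overlapped a match of another. Of the 8 genes, 7 had a promoter entry, and among the rest Adh5 had TATAAA 207 bases before its first listed start and Aldh1a1 had TTGCNNAA on the reverse strand, 13 bases before its first. Adh1, Adh4 and Adh5 all lay on the plus strand of chromosome 3, with windows starting at 138277335, 138415247 and 138436950. A match is a description of letters and not of a factor bound there.

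Tissue content was checked with lists of 10 marker genes per cell type. In fat, adipocyte markers summed to 24541 to 28369 FPKM in GT, 17399 to 19945 in HFD, and 33439 and 21885 in ND 2 and ND 3, but only 4485 in ND 1. Fat ND 1 carried testis markers at a sum of 99413 and epididymis markers at 20316, while testis markers summed to 3084 in fat ND 3, 2106 in fat HFD 1 and at most 170.1 in the other 6. Epididymis markers reached 1288 in fat HFD 2 and at most 14.8 elsewhere in fat. Hepatocyte markers summed to 53357 to 95612 in liver, with albumin (Alb) listed at 0 in liver HFD 3, so an exact 0 can be a failed estimate. In liver, adipocyte markers summed to 100.8 to 233, and testis markers to at most 0.308. Of the adipocyte markers, Adipoq reached at most 1.40 in liver, Lep 0.723 and Plin1 0.399, each highest in liver HFD 1. Skeletal muscle markers, of which 9 of 10 were in the table, summed to 52.4 in liver GT 3, 120.9 in liver HFD 2 and 24.9 in liver HFD 3, and to at most 3.44 in the other 6. Summed FPKM ran from 527904 to 1002765 per library in fat, fat ND 1 being the highest, and from 680168 to 930139 in liver, and read depth is unknown.

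In liver Cyp2e1 was the highest of the 8 genes in every library, between 1.76 and 2.69 times the summed FPKM of the other 7. The 8 genes together made up 0.905% to 1.90% of the summed FPKM of a liver library. Below Cyp2e1, the mean levels in GT livers ran in the order Aldh1a1, Aldh2, Adh1, Aldh3a2, Adh5, Adh4 and Aldh1b1, which was also the order in HFD livers. In ND livers Aldh2 came before Aldh1a1 and Aldh3a2 before Adh1. The libraries of Aldh1a1 and Aldh2 overlapped within each diet. Neither of them was the higher in every library of a diet, so they cannot be ranked. The ranges of Adh1 and Aldh3a2 overlapped in GT and ND. Within a library, however, Adh1 was the higher in each GT liver and Aldh3a2 in each ND liver. In GT the range of Adh1 also overlapped those of Aldh2 and Aldh1a1, though Adh1 was the lower in each library, and Aldh3a2 overlapped Adh5. Adh4 and Aldh1b1 stood apart at the low end, the ranges of neither reaching that of Adh5 or of each other within a diet.

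In fat the same enzymes were much lower, and their order differed. Cyp2e1 came first and Aldh2 second by mean in GT and ND, while Aldh2 came first in HFD. Aldh1a1, Adh5, Adh1 and Aldh3a2 followed in that order in all 3 diets, and Adh4 and Aldh1b1 were the lowest, with means of 1.55 to 4.02 FPKM. Cyp2e1 stood at 0.592, 1.24 and 1.59 times the sum of the other 7 genes in GT, at 0.265, 0.236 and 0.156 times in HFD, and at 0.589, 2.48 and 2.28 times in ND 1 to ND 3. Aldh1a1 and Adh5 overlapped within each diet, in ND only through ND 1, and in HFD fat Cyp2e1 overlapped both. In HFD fat Adh1 also overlapped Aldh1a1. In ND fat ND 1 brought further overlaps, among them Adh1 with Adh5 and with Aldh3a2.

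**Figure D1:**
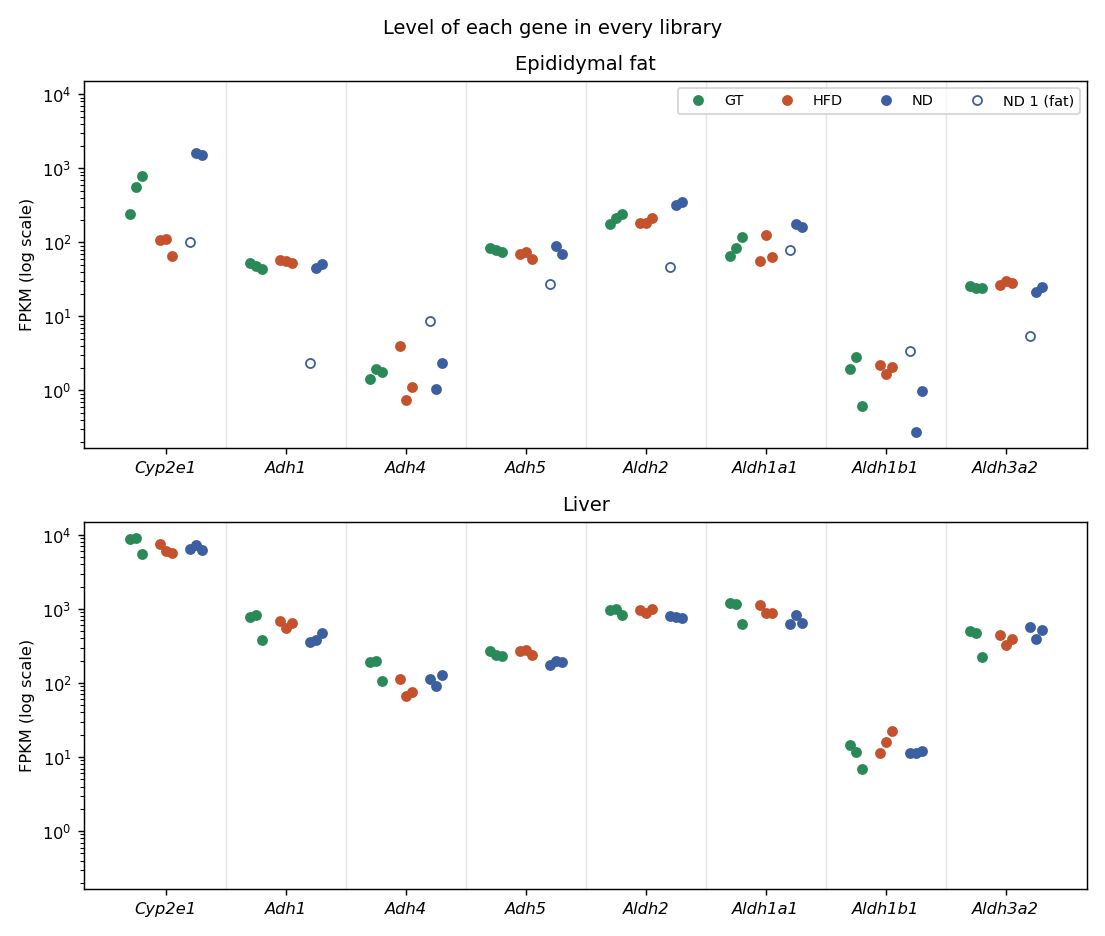
Level of each of the 8 genes in every library, in FPKM on a log axis, with epididymal fat above and liver below. Each point is 1 library, diets run GT, HFD, ND from left to right within a gene, and the open circle is fat ND 1. Cyp2e1 spreads from 65.3 to 1612 FPKM in fat and from 5571 to 8983 FPKM in liver.

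Cyp2e1 in fat was highest on the normal diet, lowest on the high-fat diet and between them with the extract, once ND 1 is set aside. Its level was 240.2, 557 and 795 FPKM in the GT libraries, 106, 111 and 65.3 in HFD, and 102, 1612 and 1492 in ND. Each GT library lay above each HFD library and below ND 2 and ND 3, while ND 1, the library with testis and epididymis transcripts, lay within the HFD range. Means were 531 ± 279 FPKM in GT and 94.0 ± 24.97 in HFD (SD, n = 3 each), against 1552 for ND 2 and ND 3.

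On the log2(FPKM + 1) scale, which understates differences of low genes, Cyp2e1 in fat differed by 2.36 ± 0.43 (SE) between GT and HFD. Without ND 1 the difference was -4.07 ± 0.48 between HFD and ND and -1.71 ± 0.48 between GT and ND. With all 9 fat libraries these were -2.76 ± 1.03 for HFD and ND and -0.40 ± 1.03 for GT and ND, and that for GT and HFD kept its size with an SE of 1.03. Leaving out ND 1 thus made both differences from ND larger and their errors smaller.

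Cell type markers differed between diets in fat as well, those of adipocytes only partly in step with Cyp2e1. Without ND 1, 7 of 10 adipocyte markers fell and 1 rose in HFD against ND (adjusted p under 0.05 in limma). Over all genes tested 9.62% fell and 17.8% rose. In GT against HFD 2 markers rose and none fell, when 0.894% of all genes rose and 0.801% fell. In GT against ND, where Cyp2e1 differed by -1.71, 1 rose and 0 fell, when 7.5% of all genes rose and 3.16% fell. The adipocyte sum of ND 3 lay below that of each GT library. Macrophage markers summed to 3410, 2961 and 1406 FPKM in GT, 5068, 3815 and 5358 in HFD, and 66.0, 569.6 and 450.5 in ND. Without ND 1, 9 of 10 rose and 0 fell in HFD against ND, and 8 rose and 0 fell in GT against ND. In GT against HFD 0 were called, though the sums of all GT libraries lay below those of HFD. Outside ND 1 the libraries ranked by macrophage sum in the reverse order of Cyp2e1, save that ND 2 and ND 3 changed places. The GT library with the least macrophage RNA was the one with the most Cyp2e1, and the GT library with the most macrophage RNA the one with the least. ND 1 had the least macrophage RNA of the fat libraries, with Cyp2e1 within the HFD range. The part of these cell types in the result was not tested, and in bulk tissue fewer cells of a type and less RNA per cell cannot be told apart. Hepatocyte markers summed to 1.92 to 40.0 FPKM over the fat libraries and Alb to 0.947 to 8.40, below Cyp2e1 in the same library in each case.

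**Figure D2:**
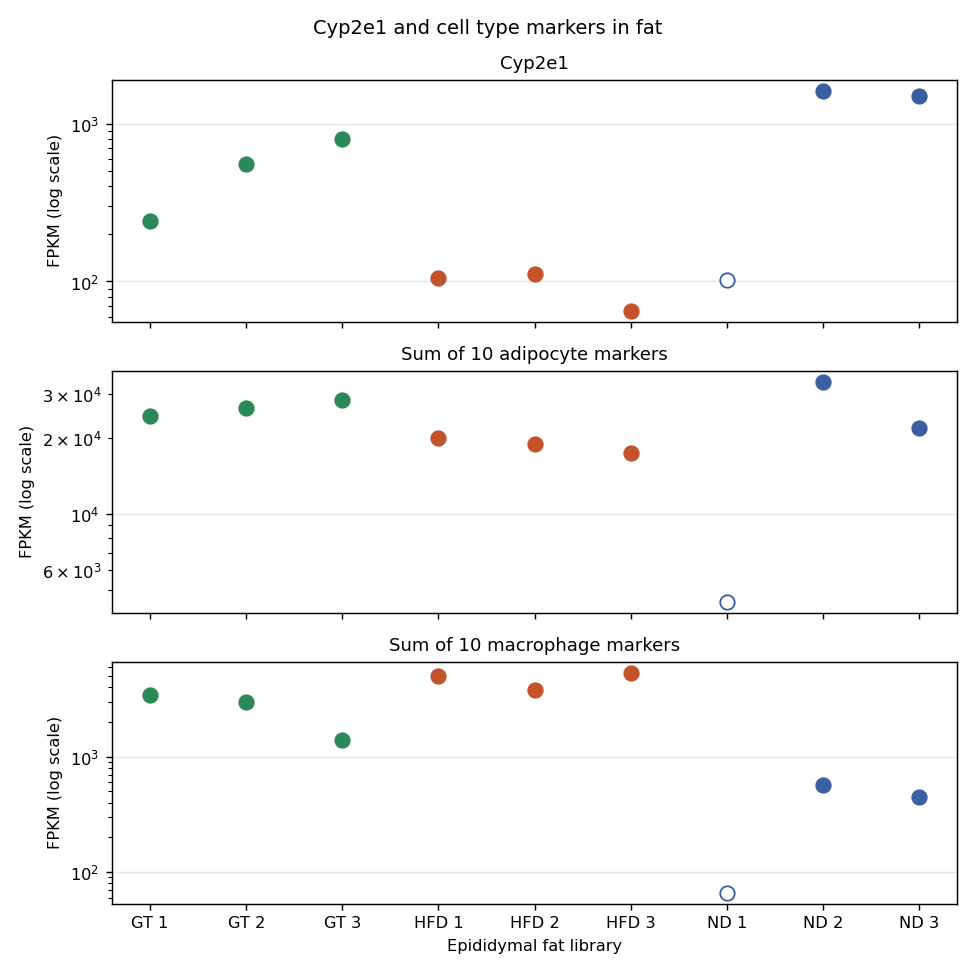
Cyp2e1, the sum of 10 adipocyte markers and the sum of 10 macrophage markers in the 9 epididymal fat libraries, in FPKM on log axes. Each point is 1 library and the open circle is ND 1. The 3 GT libraries lie between the HFD libraries and ND 2 and ND 3 for Cyp2e1, and ND 1 has the lowest value of both marker sums.

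The gene whose profile over the 8 fat libraries without ND 1 was most like that of Cyp2e1 was Cfd, the adipocyte protease adipsin, at a root-mean-square distance of 0.29 log2 units between centred profiles. Cfd ranged from 251 to 4074 FPKM. Next came Agt (angiotensinogen) at 0.43, Pck1 (the gluconeogenic and glyceroneogenic enzyme PEPCK) at 0.50, Eci3 at 0.60 and Mycl at 0.64, against a spread of Cyp2e1 about its own mean of 1.69. Among the dehydrogenases the nearest were Aldh1a1 at 1.30 and Aldh2 at 1.42, not far under the 1.69 of a flat profile. These distances describe the 8 libraries and carry no test.

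Aldh2, the mitochondrial enzyme that clears acetaldehyde, was the 1 of these 7 dehydrogenases called between diets in fat, and only without ND 1. Its level was 175, 210.2 and 239 FPKM in GT, 185, 180.0 and 210.4 in HFD, and 45.8, 316 and 346 in ND. Every GT and HFD library lay below ND 2 and ND 3 and above ND 1. Without ND 1, Aldh2 fell in HFD against ND by 0.79 ± 0.16 on the log2 scale (adjusted p = 0.00854, limma with Benjamini-Hochberg adjustment over all genes) and in GT against ND by 0.68 ± 0.16 (adjusted p = 0.0343), contrasts that share the ND libraries. The call for GT against ND was lost with no filter on low values (adjusted p = 0.0897) and at equal FPKM totals (adjusted p = 0.0586), and when any 1 library other than ND 2 and GT 3 was left out (adjusted p up to 0.117). Between GT and HFD it differed by 0.11 ± 0.14 (adjusted p = 0.68). With all 9 libraries the sign turned, to 0.15 ± 0.71 for HFD against ND (adjusted p = 0.899) and 0.27 ± 0.71 for GT against ND (adjusted p = 0.817). With fat HFD 1, ND 1 and ND 3 all left out, the libraries with most testis transcripts, it was -0.70 for HFD against ND (adjusted p = 0.0552) and -0.61 for GT against ND (adjusted p = 0.0999).

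Aldh1a1, a cytosolic enzyme that makes retinoic acid from retinaldehyde, stood at 64.9, 83.9 and 116 FPKM in GT fat, 56.1, 127 and 63.4 in HFD fat, and 79.5, 177 and 159.7 in ND fat. ND 2 and ND 3 lay above each GT and HFD library, while GT and HFD overlapped. Without ND 1 it differed by -1.12 ± 0.37 between HFD and ND (adjusted p = 0.0571) and by -0.96 ± 0.37 between GT and ND (adjusted p = 0.132), neither passing the threshold of 0.05. Aldh1a1 and its neighbour Aldh1a7 are nearly identical in sequence, so reads may have been split between them and both values are uncertain.

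Adh1, the main ethanol-oxidising enzyme of liver, was nearly level in fat apart from ND 1, at 52.7, 47.6 and 43.6 FPKM in GT, 58.0, 56.0 and 52.6 in HFD, and 2.33, 44.6 and 50.3 in ND. Adh5, which clears formaldehyde bound to glutathione and S-nitrosoglutathione, stood at 83.6, 78.1 and 75.1 FPKM in GT, 68.5, 74.7 and 60.2 in HFD, and 27.4, 90.2 and 70.3 in ND. Each GT library of Adh5 lay just above each HFD library, and ND 2 and ND 3 lay on either side of the highest HFD library. The differences between GT and HFD without ND 1 were -0.21 ± 0.11 for Adh1 (adjusted p = 0.308) and 0.22 ± 0.13 for Adh5 (adjusted p = 0.369).

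Aldh3a2, the fatty aldehyde dehydrogenase of the endoplasmic reticulum, stood at 25.5, 24.4 and 24.0 FPKM in GT fat, 26.2, 29.6 and 28.2 in HFD fat, and 5.38, 21.3 and 24.8 in ND fat. The HFD libraries lay above all others by a small margin, and the differences were -0.18 ± 0.11 between GT and HFD (adjusted p = 0.373) and 0.27 ± 0.12 between HFD and ND without ND 1 (adjusted p = 0.136). Adh4, a liver alcohol dehydrogenase that also acts on retinol, ranged from 0.750 to 3.96 FPKM in fat outside ND 1, where it reached 8.65. Aldh1b1, a mitochondrial relative of Aldh2, ranged from 0.278 to 2.84 outside ND 1, where it was 3.40. For Adh1, Adh5, Aldh2 and Aldh3a2 ND 1 was the lowest fat library, and for Adh4 and Aldh1b1 the highest.

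Of the 7 dehydrogenases in fat without ND 1, 1 was called for HFD against ND, when 27.4% of 12859 genes were called, 17.8% higher and 9.62% lower. The same gene, Aldh2, was the 1 called for GT against ND, when 10.7% of genes were called, 7.5% higher and 3.16% lower. For GT against HFD 0 of 7 were called by limma, when 1.7% of genes were, 0.894% higher and 0.801% lower, and 0 of the 7 had an unadjusted p under 0.05. With all 9 libraries 0 of 7 were called in the 3 contrasts, when 5.65% of 13762 genes were called for HFD against ND, 0% for GT against HFD and 0.639% for GT against ND, and 0 had an unadjusted p under 0.05. The median difference over the 7 without ND 1 was 0.04 for GT against HFD, 0.00 for HFD against ND and 0.01 for GT against ND, beside -0.12, 0.02 and -0.05 over all genes tested. All 8 genes passed the filter on low values in fat, with and without ND 1.

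**Figure D3:**
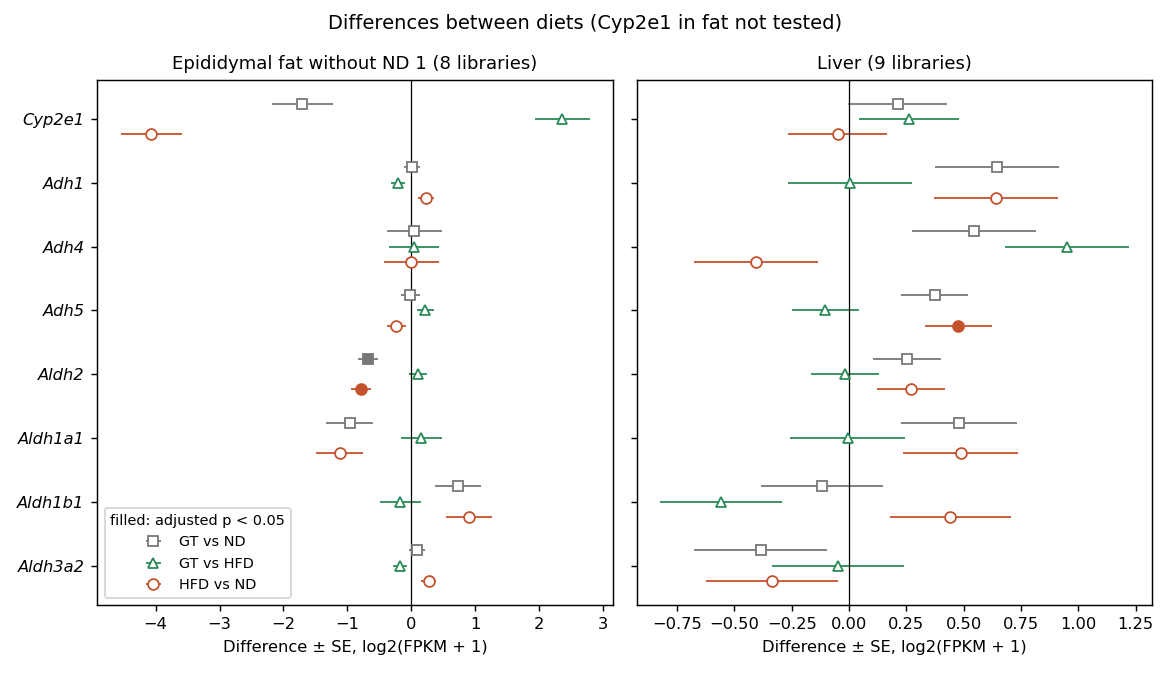
Difference between diets ± SE on the log2(FPKM + 1) scale for each gene, in epididymal fat without ND 1 (8 libraries, left) and liver (9 libraries, right). Filled symbols passed adjusted p under 0.05 in limma, and Cyp2e1 in fat was not tested. Aldh2 in fat is filled for HFD against ND and GT against ND, and Adh5 in liver for HFD against ND.

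In liver Cyp2e1 stood at 8954, 8983 and 5571 FPKM in GT, 7481, 6038 and 5761 in HFD, and 6414, 7218 and 6231 in ND. The GT libraries held both the highest levels and the lowest one, and all 3 diets overlapped. Cyp2e1 averaged 7836 ± 1961 FPKM in GT, 6427 ± 923 in HFD and 6621 ± 525 in ND (SD, n = 3 each). It did not pass in any contrast, at 0.26 ± 0.22 for GT against HFD (adjusted p = 0.503), -0.05 ± 0.22 for HFD against ND (adjusted p = 0.893) and 0.21 ± 0.22 for GT against ND (adjusted p = 0.662).

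Of the 3 alcohol dehydrogenases in liver, Adh5 was the 1 called. It stood at 269, 238 and 232 FPKM in GT, 272, 284 and 240.3 in HFD, and 177, 199 and 195 in ND. Every HFD and GT library lay above every ND library. Adh5 rose in HFD against ND by 0.48 ± 0.15 (adjusted p = 0.0435), and differed by 0.37 ± 0.15 between GT and ND (adjusted p = 0.225). The call for HFD against ND is near the threshold and was lost when any 1 liver library other than GT 3 was left out, and with no filter on low values, quantile scaling or equal FPKM totals.

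Adh1 in liver stood at 787, 839 and 386 FPKM in GT, 699, 554 and 653 in HFD, and 364, 381 and 481 in ND. All HFD libraries and GT 1 and GT 2 lay above all ND libraries, and GT 3 lay among the ND ones. The differences of 0.64 ± 0.27 for HFD against ND (adjusted p = 0.119) and 0.64 ± 0.27 for GT against ND (adjusted p = 0.264) did not pass. Without HFD 2 and GT 3, the libraries with most muscle transcripts, they were 0.74 (adjusted p = 0.0153) and 1.00 (adjusted p = 0.0125).

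Adh4 in liver stood at 194, 199 and 108 FPKM in GT, 115, 66.5 and 74.5 in HFD, and 114, 91.9 and 127 in ND. GT 1 and GT 2 lay above every other liver library, and GT 3 lay just under HFD 1. Adh4 averaged 167 ± 51.1 FPKM in GT, 85.2 ± 25.8 in HFD and 111 ± 17.8 in ND (SD, n = 3 each), and the difference of 0.95 ± 0.27 between GT and HFD missed the threshold (adjusted p = 0.0673). Without HFD 2 and GT 3 it was 1.08 (adjusted p = 0.0431), without GT 3 alone 1.24 (adjusted p = 0.0131) and without HFD 2 alone 0.79 (adjusted p = 0.266). Between HFD and ND it differed by -0.41 ± 0.27 (adjusted p = 0.307).

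Among the aldehyde dehydrogenases of liver, Aldh2 stood at 979.7, 1014 and 830.2 FPKM in GT, 971, 878 and 1005 in HFD, and 811, 786 and 764 in ND. Every HFD and GT library lay above every ND library, by differences of 0.27 ± 0.15 for HFD against ND (adjusted p = 0.217) and 0.25 ± 0.15 for GT against ND (adjusted p = 0.432) that did not pass. Aldh1a1 stood at 1213, 1176 and 627 FPKM in GT, 1138, 891 and 894 in HFD, and 629, 819 and 639.6 in ND. As with Adh1, the HFD libraries of Aldh1a1 and GT 1 and GT 2 lay above the ND libraries, and GT 3 did not. Its difference of 0.49 ± 0.25 between HFD and ND did not pass (adjusted p = 0.19), and that of 0.48 ± 0.25 between GT and ND (adjusted p = 0.371) became 0.79 without HFD 2 and GT 3 (adjusted p = 0.0381).

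Aldh3a2 in liver stood at 500.3, 471 and 222 FPKM in GT, 449, 329 and 392 in HFD, and 565, 396 and 522 in ND. The diets overlapped, with differences of -0.05 ± 0.29 between GT and HFD (adjusted p = 0.94) and -0.34 ± 0.29 between HFD and ND (adjusted p = 0.433). Aldh1b1 stood at 14.4, 11.8 and 6.96 FPKM in GT, 11.4, 16.1 and 22.5 in HFD, and 11.5, 11.2 and 12.1 in ND, with a difference of -0.56 ± 0.26 between GT and HFD (adjusted p = 0.23). Liver GT 3 was below GT 1 and GT 2 for all 8 genes, by 54.4% of their mean for Aldh3a2, 52.6% for Adh1, 47.5% for Aldh1a1, 46.7% for Aldh1b1, 45.0% for Adh4, 37.9% for Cyp2e1, 16.7% for Aldh2 and 8.48% for Adh5. Muscle markers summed to 52.4 FPKM in that library and to at most 0.945 in the other GT livers, and their part in these values was not tested. Summed FPKM over all genes was 881697 in GT 3, against 758604 in GT 1 and 680168 in GT 2. Genes outside the 8 went both ways in GT 3. Cat was lower there, at 948.1 FPKM against 1401 and 1317, and Nr1i3 higher, at 530.2 against 387.6 and 319.4.

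**Figure D4:**
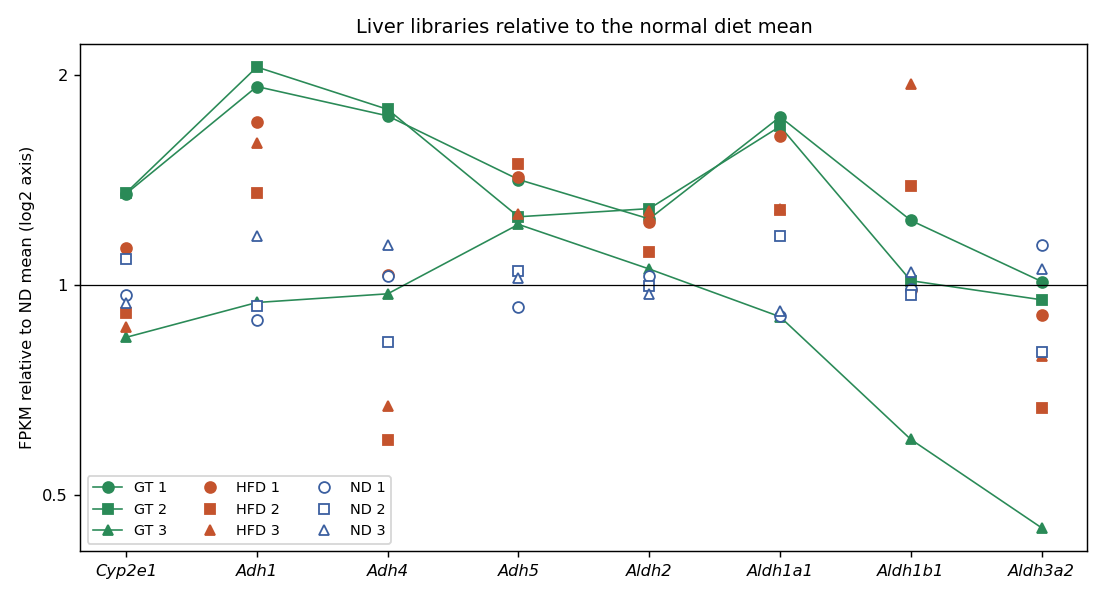
Level of each gene in the 9 liver libraries, divided by the mean of the 3 ND libraries, on a log2 axis. Lines join the genes of 1 GT library only to make it easier to follow. GT 3 lies under GT 1 and GT 2 for all 8 genes, and the HFD libraries of Adh1, Adh5, Aldh2 and Aldh1a1 lie above the ND libraries.

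Of the 8 genes in liver, 1 was called for HFD against ND, when 18.6% of 10670 genes were called, 11.9% higher and 6.67% lower. For GT against HFD 0 of 8 were called by limma, when 5.36% of genes were, 1.14% higher and 4.22% lower, with 1 (Adh4) at an unadjusted p under 0.05. For GT against ND 0 of 8 were called, when 2.6% of genes were, with 2 (Adh1 and Adh5) at an unadjusted p under 0.05. The median difference over the 8 was -0.01 for GT against HFD, 0.36 for HFD against ND and 0.31 for GT against ND, beside -0.04, -0.02 and -0.05 over all genes tested. All 8 passed the filter on low values in liver. In the nearest profiles to Cyp2e1 over the 9 liver libraries, Ak3, Timmdc1, Igfbp4, Fancl and Nudcd3 lay 0.08 to 0.11 log2 units away, against a spread of Cyp2e1 itself of only 0.24, so this likeness is between nearly flat profiles.

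Whether the diet differences themselves differed between fat and liver was tested as fat difference minus liver difference in 1 model. Without fat ND 1, 3 of 7 dehydrogenases were called for HFD against ND, all lower in fat than in liver, when 21.5% of 9957 genes were called, 11.9% higher and 9.69% lower. Aldh2 differed by -1.06 ± 0.22 (adjusted p = 0.00244), having fallen in fat and been higher without passing in liver. Aldh1a1 differed by -1.61 ± 0.45 (adjusted p = 0.0166) and Adh5 by -0.71 ± 0.20 (adjusted p = 0.0202). None of the 3 was called at equal FPKM totals, and Aldh1a1 was not called with no filter on low values (adjusted p = 0.0561). Without fat ND 2, Aldh2 was called and Aldh1a1 and Adh5 were not. Adh5 was also not called by limma without fat HFD 3 (adjusted p = 0.0637), liver ND 1 (adjusted p = 0.0541) or liver HFD 2 (adjusted p = 0.0504). The fit takes fat and liver libraries as independent, and the labels do not say whether same-numbered ones share a mouse. The median over the 7 was -0.42, beside 0.05 over all genes tested. With all 18 libraries 0 of 7 were called, when 8.53% of genes were, with Aldh1a1 at -1.25 ± 0.53 (adjusted p = 0.149), Adh5 at -0.21 ± 0.44 (adjusted p = 0.763) and Aldh2 at -0.12 ± 0.74 (adjusted p = 0.927). Only Aldh1a1 then had an unadjusted p under 0.05.

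For GT against HFD 0 of 7 dehydrogenases differed between tissues by limma, with 0 at an unadjusted p under 0.05, when 3.88% of genes were called without fat ND 1 and 0.00996% with it. Adh4 had the widest value, -0.90 ± 0.48 without fat ND 1 (adjusted p = 0.272). For Cyp2e1, given with no test, the fat difference minus the liver difference was 2.099 ± 0.47 for GT against HFD and -4.02 ± 0.50 for HFD against ND without fat ND 1, and 2.099 ± 1.09 and -2.71 ± 1.09 with it.

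Other enzymes of the pathway were counted from lists, which may be read against the shares of all genes called higher and lower: 17.8% and 9.62% for HFD against ND in fat without ND 1, 0.894% and 0.801% for GT against HFD there, and 11.9% and 6.67% for HFD against ND in liver. Of 3 further alcohol dehydrogenases 1 was tested in fat without ND 1, Adh6b, at 1.34, 1.29 and 0.468 FPKM in GT, 1.30, 1.58 and 1.89 in HFD, and 0.410, 0.412 and 0.277 in ND. Adh6b rose in HFD against ND by 0.94 ± 0.25 (adjusted p = 0.0262) and was not called with ND 1 in the fit (adjusted p = 0.0932), and reads may have been split with its close relative Adh6a. In fat without ND 1, 3 of 11 tested aldehyde dehydrogenases outside the 8 rose and 2 fell in HFD against ND, of 14 listed. Aldh3b1, which acts on long-chain aldehydes, rose by 1.71 ± 0.25 (adjusted p = 0.0023), and Aldh9a1 and Aldh18a1 rose by 0.86 ± 0.13 and 1.28 ± 0.21. Aldh6a1, the methylmalonate semialdehyde dehydrogenase of valine breakdown, fell by 1.56 ± 0.25 (adjusted p = 0.00322). In GT against ND, Aldh3b1 and Aldh9a1 rose and Aldh6a1 fell, and in GT against HFD 0 of 11 were called. The median of the list was 0.24 for HFD against ND, beside 0.02 over all genes. With all 9 fat libraries 1 of 11 rose and 0 fell for HFD against ND.

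Genes that use the products split too. In fat without ND 1, Acss2 and Acss1, the cytosolic and mitochondrial enzymes that activate acetate, rose in HFD against ND by 1.05 ± 0.15 and 0.85 ± 0.16. Acss3 fell by 1.36 ± 0.28, and catalase (Cat), which can oxidise ethanol in peroxisomes, fell by 0.57 ± 0.16 (adjusted p = 0.0333), so 2 of 4 tested genes went each way. Por, the reductase that feeds electrons to P450 enzymes including CYP2E1, fell by 1.14 ± 0.28 (adjusted p = 0.0197) and the cytochrome Cyb5b rose by 1.18 ± 0.13. None of these 8 acetate, catalase and electron donor genes was called for GT against HFD. With all 9 fat libraries 1 acetate gene and 1 electron donor rose in HFD against ND and 0 of either list fell.

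Of 14 tested retinoid genes in fat without ND 1, of 23 listed, 2 rose and 1 fell in HFD against ND. Dhrs9, a retinol dehydrogenase, rose by 4.07 ± 0.43 and the retinol-binding protein receptor Stra6l by 2.55 ± 0.32. Rbp4, the retinol carrier of plasma, stood at 292, 318 and 362 FPKM in GT, 177, 172 and 181 in HFD, and 71.1, 568 and 387 in ND. Rbp4 lay higher in each GT library than in each HFD library and was the 1 retinoid gene called for GT against HFD, up by 0.87 ± 0.16 (adjusted p = 0.0486). It fell in HFD against ND by 1.41 ± 0.18 (adjusted p = 0.00162), and both contrasts use the same HFD libraries. With all 9 fat libraries 2 retinoid genes rose and 0 fell for HFD against ND, and 0 were called for GT against HFD.

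Reductases that turn aldehydes back into alcohols rose in 3 of 5 tested genes in HFD against ND fat without ND 1, with 0 falling. They were Akr1b8 at 2.14 ± 0.24, Cbr3 at 1.24 ± 0.16 and Akr1a1 at 0.77 ± 0.20. Cbr3, a carbonyl reductase, stood at 3.85, 3.75 and 3.25 FPKM in GT, 9.07, 7.28 and 8.64 in HFD, and 11.3, 2.68 and 3.25 in ND. It fell in GT against HFD by 1.01 ± 0.14 (adjusted p = 0.0412), the 1 of 5 called, while Akr1b8 missed the threshold at -1.11 ± 0.22 (adjusted p = 0.0513). The rise and the fall of Cbr3 rest on the same HFD libraries. With all 9 fat libraries 1 of 5 rose in HFD against ND and 0 were called in GT against HFD. Of 3 tested factors known to act on the Cyp2e1 promoter, Cebpb rose in HFD against ND fat without ND 1 by 1.25 ± 0.28 (adjusted p = 0.0126), and 0 of 3 were called with ND 1 or for GT against HFD.

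In liver, Adh7, an alcohol dehydrogenase active on retinol and best known from the stomach lining, was the 1 of 3 listed further alcohol dehydrogenases that passed the filter. Its level was 5.26, 5.92 and 9.99 FPKM in GT, 1.48, 1.84 and 3.41 in HFD, and 7.74, 4.63 and 7.76 in ND. The HFD libraries lay below all the others. Adh7 rose in GT against HFD by 1.31 ± 0.28 (adjusted p = 0.0276) and fell in HFD against ND by 1.27 ± 0.28 (adjusted p = 0.0131). These 2 contrasts share the HFD libraries.

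Among 8 tested further aldehyde dehydrogenases of liver, Aldh1a7 and Aldh16a1 rose in HFD against ND, by 0.81 ± 0.19 and 0.59 ± 0.18, and 0 were called in GT against HFD. Of 4 electron donors, the cytochrome Cyb5a rose by 1.06 ± 0.17 (adjusted p = 0.00481) and its reductase Cyb5r3 by 0.61 ± 0.19, while Por fell by 0.80 ± 0.21 (adjusted p = 0.0232). Por thus fell in HFD against ND in both tissues, and in fat it was called only without ND 1. Of 4 acetate and catalase genes Acss2 rose, and of 4 reductases Akr1a1. Of 17 retinoid genes 1 rose and 2 fell, Retsat by 1.17 ± 0.21 and Rdh13 by 0.63 ± 0.15.

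Of 6 factors known to act on the Cyp2e1 promoter, Cebpb rose in HFD against ND liver by 1.73 ± 0.17 (adjusted p = 0.000727) and Cebpa by 0.55 ± 0.16 (adjusted p = 0.0376). Cebpb fell in GT against HFD by 1.25 ± 0.17 (adjusted p = 0.00712), a contrast that shares the HFD libraries with its rise. Hnf4a, Nr1i3 and Ppara were not called in these contrasts. Cyp2e1 marks the zone around the central vein, and of 11 tested genes of that zone 1, Lect2, rose in HFD against ND, by 1.76 ± 0.20, while 0 fell. Of 12 genes of the zone around the portal vein, 0 rose and the urea cycle gene Cps1 and Pck1 fell by 1.94 ± 0.27 and 1.34 ± 0.30. In GT against HFD 0 of 11 pericentral genes and 1 of 12 periportal genes (Sds, lower by 0.79 ± 0.19) were called.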

How the data were processed

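The deposited table holds FPKM per gene and library, computed by the authors. The tools named per the submitters' processing notes are Cufflinks 2.1.1, STAR 2.4.0 and CASAVA 1.8.2, and the sources used here name no genome build. Groups come from the labels. Of 23474 identifiers 22671 matched a GENCODE M21 symbol. Values were taken as log2(FPKM + 1), genes with at least 1 FPKM in at least 3 libraries of a tissue were kept (13762 in fat, 12859 without ND 1, 10670 in liver), and limma 3.58.1 in R 4.3.3 estimated the diet means of each tissue, its moderated variances using the trend and robust settings. Tissue differences used 1 fit of the 10042 genes kept in both tissues (9957 without fat ND 1). P-values were adjusted by Benjamini-Hochberg over all genes kept, with a threshold of 0.05. The fits of all 9 libraries of fat and of liver were tried on simulated data for HFD against ND, with the outcome not reported here. The fits without ND 1 and between tissues were not tried in this way. Members and lists were chosen with earlier results of these data known. All 8 members are described, and from each list up to 4 genes of smallest p were open to naming, though some are not reported here. Profile likeness used the root-mean-square distance between centred log2 profiles and names the nearest 5. Promoters came from RefSeq. Plots and tables were made in Python 3.11.15. Repeats changed the added constant, filter, scaling, block, diets in the fit and libraries. FPKM shares 1 total per library, so a large change in abundant transcripts moves all other values.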

Additional observations from a re-analysis of the deposited data

Results flagged for a closer look

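The difference between HFD and ND itself differed between fat and liver for 3 of the 7 dehydrogenases when fat ND 1 was left out, by a test of fat difference minus liver difference in limma. Aldh2 gave -1.06 (adjusted p = 0.00244), Aldh1a1 -1.61 (adjusted p = 0.0166) and Adh5 -0.71 (adjusted p = 0.0202). Aldh2 was lower in all 3 HFD fat libraries than in ND 2 and ND 3 and higher in all 3 HFD liver libraries than in the 3 ND livers. With all 18 libraries the values were -0.12, -1.25 and -0.21 and none of the 3 was called. At equal FPKM totals they were -0.75 (adjusted p = 0.0571), -1.31 (adjusted p = 0.0666) and -0.41 (adjusted p = 0.188).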

How the results depend on the processing

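In fat without ND 1, the fall of Aldh2 in HFD against ND passed under the repeats run on those 8 libraries, with adjusted p from 0.0035 to 0.0319, but not when ND 3 and HFD 1 were left out as well (adjusted p = 0.0552). The count of 1 of 7 called for HFD against ND became 2 with quantile scaling, which added Aldh1a1 at -1.34 (adjusted p = 0.0415), and 1 to 2 with single libraries left out. The count of 1 for GT against ND became 0 with no filter, at equal FPKM totals and with only the 2 compared diets in the fit, and 0 to 2 with single libraries left out. With all 9 fat libraries the count for HFD against ND, 0, became 1 without the 3 libraries with most testis transcripts (Aldh3a2 at 0.42, adjusted p = 0.0489), and leaving out single libraries gave 0 to 1, as for GT against ND. Signs turned there without ND 1 for Aldh2, which ranged from -0.79 to 0.66 with single libraries left out for HFD against ND and from -0.68 to 0.77 for GT against ND. Cyp2e1 in GT against ND ranged from -1.71 to 0.28, and its sign turned without ND 2 (0.28), ND 3 (0.22) or GT 1 (0.09).

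In liver the count of 1 for HFD against ND became 0 with no filter, with quantile scaling and at equal FPKM totals, 2 with only the 2 compared diets in the fit, and 0 to 3 with single libraries left out. Without HFD 2 and GT 3 it stayed at 1, as Adh1 in place of Adh5 (0.43, adjusted p = 0.0589), while GT against HFD gave 1 and GT against ND 2. Single libraries left out gave 0 to 1 for GT against HFD and 0 to 2 for GT against ND. For the tissue difference in HFD against ND, the count of 3 without fat ND 1 became 0 at equal FPKM totals and 1 to 4 with single libraries left out, being 1 without fat ND 2 and 4 without liver GT 3. With all libraries it ran from 0 to 3. Equal FPKM totals moved the median of all genes to -0.20 in liver for HFD against ND, to 0.41 in fat and to 0.30 for the tissue difference without fat ND 1.

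Same-numbered libraries showed no clear tendency to deviate together. In liver their correlations ran from -0.301 to 0.418, and those of other pairs from -0.403 to 0.399. In fat without ND 1, HFD and GT libraries gave -0.0694 to 0.207 for same numbers and -0.263 to 0.209 for others. Correlations with ND 2 and ND 3 in fat, from -0.617 to 0.321 for same numbers, mirror each other in sign and cannot show pairing. Within a tissue the numbers were thus not taken as pairs, and same-numbered libraries of fat and liver were not compared. With the replicate number as a block, the count for HFD against ND in liver and that for GT against ND in fat without ND 1 were both 0. Of 1824 repeated values of single genes, 96 had the other sign without being called in either, and 5 turned as given above. FPKM without read numbers sets no floor for Adh4 and Aldh1b1 in fat, and 3 libraries a group leave calls near the threshold dependent on 1 library. Causes were not tested.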
